A study of Mus musculus with 9 samples.

Results

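The 46 genes described here copy DNA and divide the cell, and they come from a list of 48 DNA replication and mitosis genes. That list was drawn up by gene name, without a rule on measured values, but with earlier results of these data known. The 46 genes were found among the 55274 gene identifiers measured in each library, and 2 of the 48 were not analysed here. All 46 were among the 13493 genes kept by a filter on low values (1 FPKM or more in 3 or more of the 9 libraries), and 0 of them were under 1 FPKM in any library, so none passed through a single group in which it is high.

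RNA was sequenced from mouse bone marrow cells carrying retroviral vectors, with 3 libraries of NRASG12D cells, 3 of NUP98-NSD1 cells and 3 of NUP98-NSD1+NRASG12D cells, called doubly transduced below. In NRASG12D an amino acid exchange keeps the NRAS protein switched on, and NUP98-NSD1 is a fusion of a nuclear pore protein with a histone methyltransferase that occurs in acute myeloid leukaemia. The study worked with female C57BL/6J mice of 6 to 8 weeks, and names the marrow donors by strain alone. NUP98-NSD1 was carried by MSCV-IRES-GFP and NRASG12D by MSCV-IRES-BFP, the cells were sorted by these fluorescent proteins and expanded, and none of the 9 libraries comes from cells without a vector or with an empty vector. Donors of all 3 groups had received 150 mg/kg of 5-fluorouracil 4 days before harvest. The marrow of all groups was stimulated for 48 h in medium with 15% FBS, 10 ng/mL hIL-6, 6 ng/mL mIL-3 and 20 ng/mL mSCF. The labels do not say whether the 3 replicates of a group were separate cultures, so the spread between them may be in part technical. The comparisons ask how these genes stand in cells with the fusion, in cells with the RAS mutant, and in cells with both.

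As background, a cell licenses its replication origins by loading the MCM helicase, fires them with the help of Cdc45 and the GINS complex, and parts the copied chromosomes in mitosis under kinases such as Plk1 and Aurora B. Genes of DNA replication are switched on by E2F factors once RB proteins let go of them, and genes of mitosis by B-Myb, the MuvB complex and FoxM1, so their RNA rises and falls with the cell cycle. In marrow, progenitor cells cycle, and cells leave the cycle as they mature into granulocytes and other blood cells.

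Sequencing depth, estimated from the spacing of the low values in each library, was 24000000, 35300000 and 22400000 fragments for NRASG12D replicates 1 to 3, 29500000, 26400000 and 24000000 with NUP98-NSD1 and 28100000, 24400000 and 22800000 with both proteins. Levels are in FPKM, fragments per transcript kilobase corrected for library depth, and the mean over the 9 libraries ran from 3.71 FPKM for Foxm1 to 219.8 FPKM for Rrm2, with a median of 45.7 FPKM over the 46 genes. The thinnest value, that of Gins1 in its lowest library, rested on an estimated 59 fragments. Differences below are on the log2 scale of FPKM + 1, and a gene is called higher or lower where its limma p, adjusted over all 13493 genes by Benjamini and Hochberg, is under 0.05.

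The cells of the 3 groups differed in type. The study describes the NRASG12D cells as mostly mast cells, and all 10 listed mast cell markers were analysed, with Cma1 the most abundant in the NRASG12D libraries and Cpa3 in those with the fusion. Their summed level was 36190.0, 38297 and 37489 FPKM in NRASG12D, 29111, 29223 and 35328 in NUP98-NSD1 and 1025, 4713 and 784 in NUP98-NSD1+NRASG12D cells. Both NRASG12D and NUP98-NSD1 libraries were therefore rich in mast cell RNA, and the doubly transduced libraries were low in it. Cpa3, a mast cell protease, was listed at 0 FPKM in each NRASG12D library against 13413, 12564 and 14378 FPKM in NUP98-NSD1 cells. Most other mast cell markers were abundant in those NRASG12D libraries, and why this gene is at 0 there cannot be seen in these data, so its higher calls below are in doubt, and the sums above hold its FPKM in the groups with the fusion. The other 9 were detected in every library, and in NUP98-NSD1 cells against NRASG12D 3 of the 10 (Cpa3, Mcpt4 and Hdc) were called higher and 5 (Kit, Ms4a2, Cma1, Tpsb2 and Tph1) lower. In the doubly transduced cells 2 (Cpa3, with the doubt just named, and Hdc) were called higher and 8 lower. After median-ratio scaling or quantile normalization 1 was called higher there. Hdc in doubly transduced replicate 3, at 8.08 FPKM, lay below NRASG12D replicate 2, at 8.72 FPKM. The 10 granulocyte and monocyte progenitor markers, led by Lyz2, summed to 55.6, 109 and 30.9 FPKM in NRASG12D, 7905, 7190.5 and 3205 in NUP98-NSD1 and 19226, 17233 and 30322 in NUP98-NSD1+NRASG12D cells. These markers were low with NRASG12D, where 4, 0 and 1 of them were at 0 FPKM in the 3 libraries, and all 10 were called higher in each group with the fusion. The 5 erythroid markers, led by Hbb-bs in the mean over all libraries, summed to 3.16, 5.96 and 3.77 FPKM in NRASG12D, 34.8, 49.4 and 23.3 in NUP98-NSD1 and 15.1, 30.7 and 3.31 in NUP98-NSD1+NRASG12D cells. Of these, 3 (Hba-a1, Hbb-bs and Klf1) were called higher in NUP98-NSD1 cells, and 1 (Epor) was called lower in doubly transduced cells. The sums of 4 megakaryocyte markers were 602, 669 and 607 FPKM in NRASG12D, 292, 289 and 379.5 in NUP98-NSD1 and 76.0, 1217 and 117 in NUP98-NSD1+NRASG12D cells, and they mix opposite changes. Of the 3 tested, Pf4 was called higher and Itga2b and Gp1ba lower in each group with the fusion against NRASG12D, and Pf4 made up most of the sums in doubly transduced cells. Of the 5 lymphoid markers 0 passed the filter, and their sums stayed between 0.0319 and 0.191 FPKM in the 9 libraries. Markers of mast cells, of granulocytes and monocytes, of erythroid cells and of megakaryocytes thus moved with the groups compared below, and their part in the results on the 46 genes was not tested. In bulk RNA, a change in the fraction of cells that cycle and a change in RNA per cell cannot be told apart.

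The mean log2(FPKM + 1) of the 46 genes was 4.69, 4.78 and 4.34 in NRASG12D, 5.49, 5.48 and 5.44 in NUP98-NSD1 and 5.89, 5.16 and 5.39 in NUP98-NSD1+NRASG12D cells. All 6 libraries with the fusion lay above all 3 NRASG12D libraries. The group mean was 4.60 (SD 0.23, n = 3) with NRASG12D, 5.47 (SD 0.027, n = 3) with NUP98-NSD1 and 5.48 (SD 0.38, n = 3) with NUP98-NSD1+NRASG12D. The 3 NUP98-NSD1 libraries were close together, with a median ratio of the highest to the lowest library of 1.14 over the genes, against 1.41 with NRASG12D and 1.71 with NUP98-NSD1+NRASG12D. Some libraries stood apart across the list. NUP98-NSD1+NRASG12D replicate 1 was the highest of its group for 43 of the 46 genes and of all 9 libraries for 39, and NRASG12D replicate 3 was the lowest of its group for 45 and of all 9 for 44. NUP98-NSD1+NRASG12D replicate 2 was the lowest of its group for 34 genes.

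**Figure D1:**
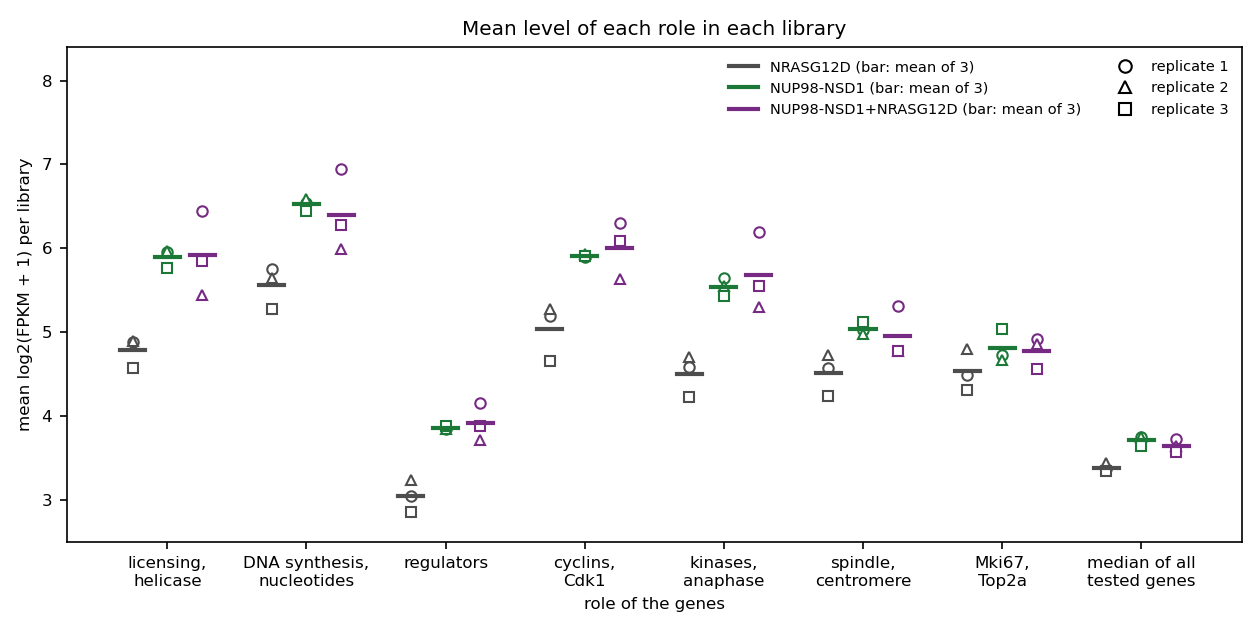
Mean log2(FPKM + 1) in each library (vertical axis) for the genes of each role and, at the right, the median of all tested genes. Open circles, triangles and squares are replicates 1, 2 and 3 of each group and bars are means of 3, and over all 46 genes the libraries with the fusion had means from 5.16 to 5.89 against 4.34 to 4.78 with NRASG12D.

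The median over all 13493 tested genes was itself shifted, by 0.27 for NUP98-NSD1 minus NRASG12D, by 0.23 for NUP98-NSD1+NRASG12D minus NRASG12D and by -0.059 for NUP98-NSD1+NRASG12D minus NUP98-NSD1. The differences from NRASG12D of the list, and of its genes whose levels are printed, are therefore also given relative to that median gene. The same is done for the median of the reference genes, and other differences are not given so. Of the genes called in NUP98-NSD1 cells against NRASG12D cells, 80.9% were higher with the deposited values, 49.3% after median-ratio scaling and 43.2% after quantile normalization. For NUP98-NSD1+NRASG12D against NRASG12D these shares were 63.1%, 50.9% and 41.3%. The doubly transduced and the NUP98-NSD1 groups are compared with the same 3 NRASG12D libraries, so their differences share that side.

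NUP98-NSD1 cells were compared with NRASG12D cells first. Of the 46 genes, 43 were called higher, beside 42.2% of all tested genes, 1 was called lower, beside 9.98%, and 2 (Mki67 and Cenpf) were not called. Their median difference was 0.91, or 0.64 relative to the median gene, and single genes ran from -0.39 for E2f1 to 1.74 for Mybl2. The libraries of the 2 groups did not overlap for 43 higher genes, beside 50.7% of all tested genes, and for 1 lower gene, beside 13.5%. With median-ratio scaling 33 of the genes were called higher, beside 22.7% of all tested genes, and with quantile normalization 34, beside 19.4%. Ccnb2, Ccne2, Cenpe, Foxm1, Kif11, Kif23, Nusap1, Top2a and Tpx2 lost the call under both of these scalings and Pcna under median-ratio scaling. Without the filter on low values 37 were called higher, and Ccnb2, Ccne2, Cenpe, Foxm1, Kif23 and Tpx2 were not. In each of the 6 fits that leave out 1 library, 38 of the 43 kept the call, and the exceptions were Foxm1, Ccne2, Ccnb2, Kif23 and Cenpe. Without NRASG12D replicate 3, the library lowest in these genes, 40 were called higher. A fit of all 9 libraries called 33, without Ccnb2, Cenpe, Chek1, Foxm1, Kif23, Mcm3, Nusap1, Pcna, Top2a and Tpx2.

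With each pair of groups fitted on its own, NUP98-NSD1+NRASG12D cells gave calls against NRASG12D for fewer of the genes, with a wider spread between libraries. Of the 46 genes, 27 were called higher, beside 24.2% of all tested genes, and limma called 0 lower, beside 14.1%. An unadjusted limma p under 0.05 was reached by 32 of the 46, all of them higher, beside 6697 of all 13493 tested genes in either direction. The median difference was 0.90, or 0.67 relative to the median gene, and single genes ran from -0.15 for E2f1 to 1.96 for Gins1. Libraries did not overlap for 34 higher genes, beside 38.7% of all tested genes, and for 0 lower genes, beside 19.9%. Median-ratio scaling gave 25 called higher, beside 19.8%, and quantile normalization gave 19, beside 16.0%. Kif20a and Ung lost the call under both scalings, and Cdc20, E2f8, Mcm2, Mcm4, Mcm6 and Rrm1 under quantile normalization. This count depended on the filter and on single libraries. It was 11 without the filter on low values, where Aurkb, Birc5, Bub1b, Cdc20, Cdk1, Kif20a, Mcm2, Mcm4, Mcm5, Mcm6, Mcm7, Rrm1, Rrm2, Tk1, Uhrf1 and Ung lost the call, a loss that holds beside what is said of each below. It was 10 without NRASG12D replicate 3, 16 without NRASG12D replicate 1, 16 without NRASG12D replicate 2, 26 without NUP98-NSD1+NRASG12D replicate 1, 33 without NUP98-NSD1+NRASG12D replicate 2 and 20 without NUP98-NSD1+NRASG12D replicate 3. A fit of all 9 libraries called 33 higher, the same count as for NUP98-NSD1 cells in that fit, and gained Ccna2, Ccne2, Cenpa, Cenpe, Dut and Pcna. For fits without the filter, without 1 library or of all 9 libraries, no share of all tested genes called is given here. Whether the 46 genes lost more calls than other genes in those fits was not tested. Cdc6, Cdc45, Gins1, E2f2, Mybl2, Ccne1, Ccnb1, Aurka, Plk1 and Bub1 were the 10 genes that kept the call in each of the 6 fits without 1 library. Where several libraries are named below after the word without, each was left out on its own.

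NUP98-NSD1+NRASG12D cells and NUP98-NSD1 cells were not told apart by these genes. Limma called 0 of the 46 higher, beside 2.30% of all tested genes, and 0 lower, beside 6.31%. An unadjusted limma p under 0.05 was reached by 3, beside 3316 of all 13493 tested genes. The median difference was -0.017, against -0.059 over all tested genes, and ran from -0.19 to 0.19 when single libraries were left out. With median-ratio scaling it turned to 0.081, and the median over all tested genes to 0.028. Of the 46 differences 20 were above 0, and 33 with that scaling, beside 5811 and 7211 of the 13493 tested genes. Libraries did not overlap for 2 higher genes (E2f2 and Ccne1), beside 11.6% of all tested genes, and for 1 lower gene (Tyms), beside 19.8%. Leaving out NUP98-NSD1+NRASG12D replicate 1 brought 3 lower calls, of Tyms, Kif11 and Nusap1. These misses do not show that the levels were equal, since the doubly transduced libraries differed among themselves by a median of 1.71 times.

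**Figure D2:**
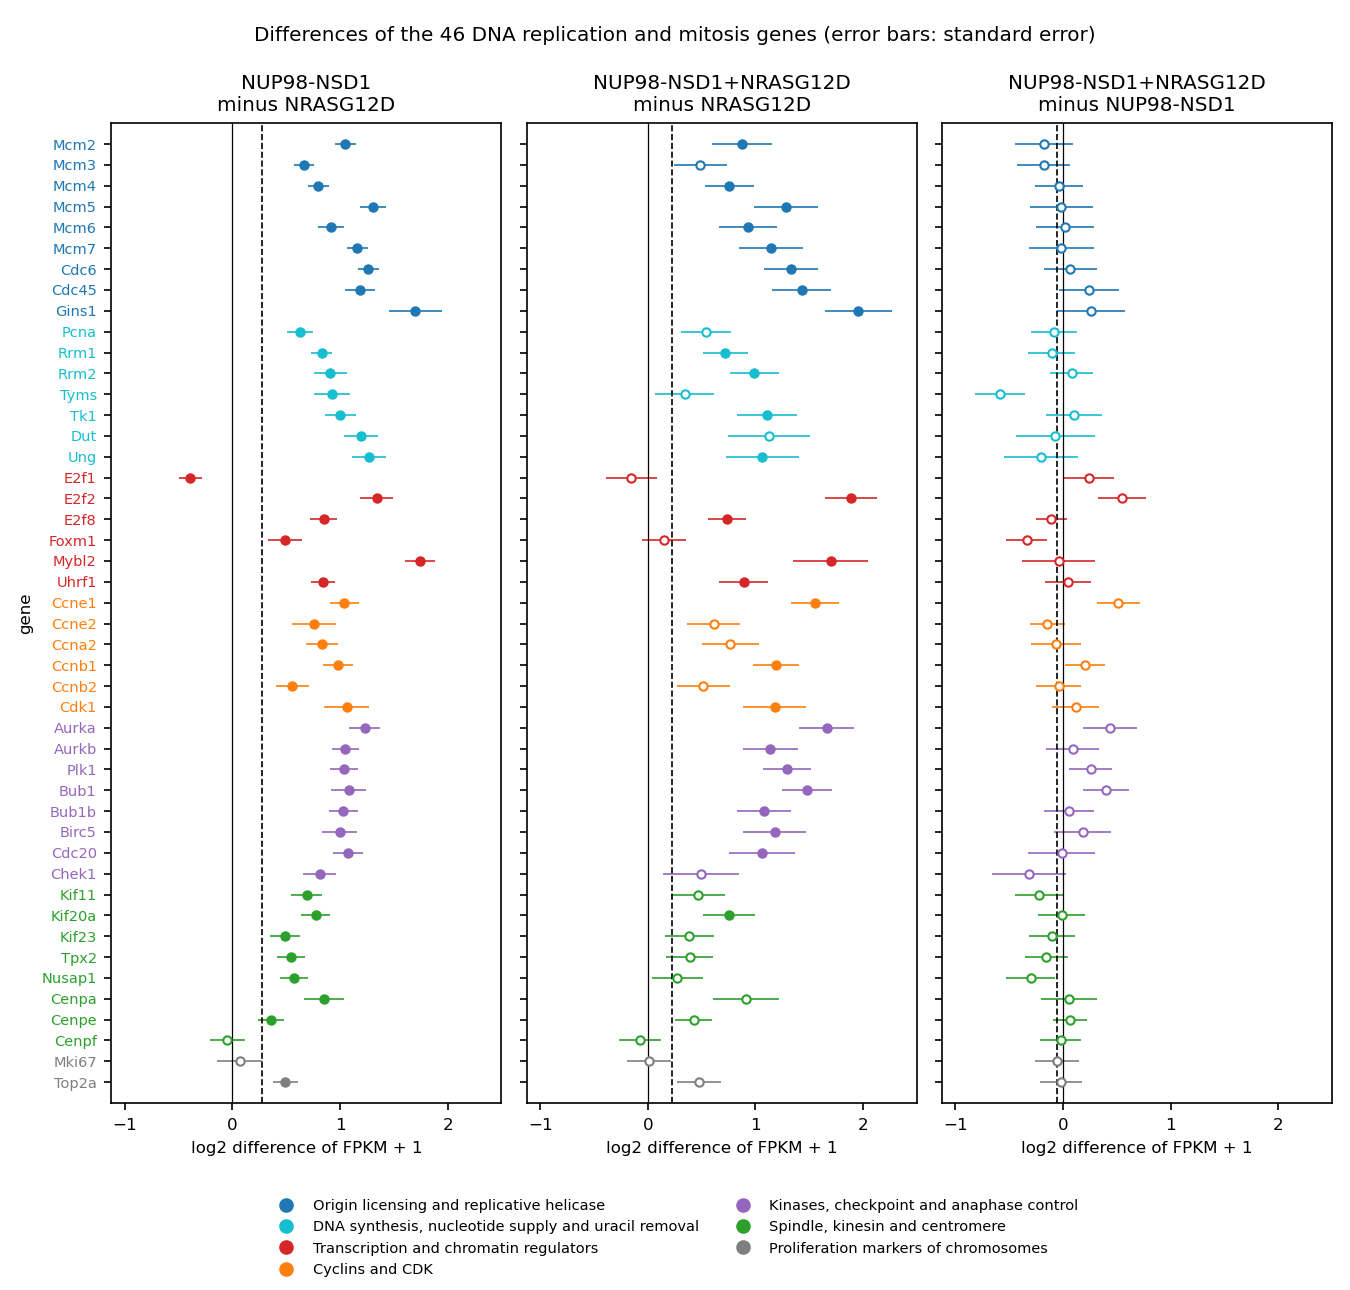
Log2 difference of FPKM + 1 (horizontal axis) with its standard error for each of the 46 genes in 3 comparisons, coloured by role, with filled points for an adjusted p under 0.05 and a dashed line at the median of all tested genes. Filled points number 44 for NUP98-NSD1 minus NRASG12D, 27 for NUP98-NSD1+NRASG12D minus NRASG12D and 0 for NUP98-NSD1+NRASG12D minus NUP98-NSD1, and after median-ratio scaling or quantile normalization the difference of Mki67 from NRASG12D turns below 0.

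Of the genes of origin licensing and the replicative helicase, all 9 analysed were called higher in NUP98-NSD1 cells and 8 of the 9 in NUP98-NSD1+NRASG12D cells, beside 42.2% and 24.2% of all tested genes, with median differences from NRASG12D of 1.16 and 1.14. In the latter 3 of the 9 were called without the filter, 5 with quantile normalization, 4 without NRASG12D replicate 1, 4 without NRASG12D replicate 2 and 3 (Cdc6, Cdc45 and Gins1) without NRASG12D replicate 3. Mcm2, a subunit of the MCM helicase, was at 48.2, 47.5 and 38.9 FPKM in NRASG12D, 92.3, 97.6 and 91.2 in NUP98-NSD1 and 126, 59.9 and 75.4 in NUP98-NSD1+NRASG12D cells. Every library with the fusion was above every NRASG12D library, and NUP98-NSD1+NRASG12D replicate 1 was far above its group. Its difference from NRASG12D was 1.05, or 0.78 relative to the median gene (standard error 0.10, adjusted p = 0.000644) in NUP98-NSD1 cells and 0.88, or 0.65 relative (adjusted p = 0.0436) in the doubly transduced cells. For Mcm2 the latter call ended with quantile normalization (adjusted p = 0.0816) and without NRASG12D replicate 1, 2 or 3 or NUP98-NSD1+NRASG12D replicate 3 (adjusted p from 0.0784 to 0.146), and the difference was 0.58 without NUP98-NSD1+NRASG12D replicate 1. Mcm5 (ENSMUSG00000005410.6, chromosome 8 from 75109569 to 75128439 of GRCm38), another subunit of that helicase, was at 44.8, 43.5 and 34.0 FPKM in NRASG12D, 104, 105 and 95.4 in NUP98-NSD1 and 157, 70.4 and 91.2 in NUP98-NSD1+NRASG12D cells. The lowest library with the fusion had more Mcm5 than any NRASG12D library. It differed from NRASG12D by 1.30, or 1.03 relative to the median gene (standard error 0.12, adjusted p = 0.000531) in NUP98-NSD1 and by 1.29, or 1.06 relative (adjusted p = 0.0152) in NUP98-NSD1+NRASG12D cells. For Mcm5 the second call ended without NRASG12D replicate 3 (adjusted p = 0.0643). Cdc6, which loads the helicase onto origins, stood at 11.1, 10.4 and 9.27 FPKM in NRASG12D, 27.01, 26.5 and 24.5 in NUP98-NSD1 and 37.6, 18.8 and 28.5 in NUP98-NSD1+NRASG12D cells. Again the NRASG12D libraries were the 3 lowest and did not overlap with the others. Cdc6 differed by 1.26, or 0.99 relative to the median gene (standard error 0.097, adjusted p = 0.000286) with the fusion alone and by 1.33, or 1.10 relative (adjusted p = 0.00680) with both proteins. Gins1 (ENSMUSG00000027454.10, chromosome 2 from 150905400 to 150931280 of GRCm38), part of the GINS complex that activates the helicase, had 4.04, 4.46 and 2.40 FPKM in NRASG12D, 17.8, 14.5 and 10.0 in NUP98-NSD1 and 25.6, 12.0 and 14.9 in NUP98-NSD1+NRASG12D cells. The 3 NRASG12D libraries were the lowest, and NUP98-NSD1 replicate 3 was the nearest to them. The difference of Gins1 was 1.70, or 1.43 relative to the median gene (standard error 0.25, adjusted p = 0.00222) in NUP98-NSD1 cells and 1.96, or 1.73 relative (adjusted p = 0.00337) in those with both proteins. On the log2 scale of FPKM + 1 the latter was the largest of the list there, while E2f2 had a larger ratio of mean FPKM, 5.39 against 4.81. The remaining licensing genes, Mcm3, Mcm4, Mcm6, Mcm7 and Cdc45, differed from NRASG12D by 0.67 (Mcm3) to 1.19 (Cdc45) in NUP98-NSD1 cells. In NUP98-NSD1+NRASG12D cells they ran from 0.49 for Mcm3, the role's gene without a call (adjusted p = 0.154), to 1.43 for Cdc45. There, the call of Mcm4 ended without NRASG12D replicate 1, 2 or 3 (adjusted p from 0.0884 to 0.130), that of Mcm6 without NRASG12D replicate 1, 2 or 3 or NUP98-NSD1+NRASG12D replicate 1 or 3 (adjusted p from 0.0560 to 0.121) and that of Mcm7 without NRASG12D replicate 1, 2 or 3 (adjusted p from 0.0632 to 0.0878), and those of Mcm4 and Mcm6 also with quantile normalization.

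For DNA synthesis, the supply of nucleotides and the removal of uracil, all 7 genes of this role were called higher in NUP98-NSD1 cells and 4 of the 7 in NUP98-NSD1+NRASG12D cells, beside 42.2% and 24.2% of all tested genes, with medians of 0.93 and 0.99. In the latter cells 0 were called without the filter, 3 with median-ratio scaling and 2 with quantile normalization. There, 2 were called without NRASG12D replicate 1, 0 without NRASG12D replicate 2 or 3, 2 without doubly transduced replicate 3 and 6 without doubly transduced replicate 2. Pcna, the sliding clamp of DNA polymerases, was at 80.9, 84.4 and 62.1 FPKM in NRASG12D, 115, 120.2 and 114 in NUP98-NSD1 and 147, 86.5 and 104 in NUP98-NSD1+NRASG12D cells. No library with the fusion fell to the NRASG12D level, though the lowest doubly transduced library came close to it. Pcna differed from NRASG12D by 0.63, or 0.35 relative to the median gene (standard error 0.12, adjusted p = 0.00602) in NUP98-NSD1 and by 0.54, or 0.31 relative (adjusted p = 0.105) in NUP98-NSD1+NRASG12D cells. For Pcna the second difference was called without NUP98-NSD1+NRASG12D replicate 2 (adjusted p = 0.0425). Rrm2, the regulated subunit of ribonucleotide reductase, was the most abundant gene of the list, with 160.0, 141 and 106 FPKM in NRASG12D, 233, 257 and 269 in NUP98-NSD1 and 329, 217 and 266 in NUP98-NSD1+NRASG12D cells. Its groups with the fusion lay wholly above NRASG12D. Rrm2 differed by 0.91, or 0.64 relative to the median gene (standard error 0.15, adjusted p = 0.00355) and by 0.99, or 0.76 relative (adjusted p = 0.0150) in the respective groups. For Rrm2 the call in doubly transduced cells ended without NRASG12D replicate 2 or 3 (adjusted p from 0.0510 to 0.0658). Tyms, the enzyme that makes thymidylate, was at 88.1, 80.4 and 55.3 FPKM in NRASG12D, 132, 143 and 145 in NUP98-NSD1 and 130.0, 73.7 and 83.9 in NUP98-NSD1+NRASG12D cells. All NUP98-NSD1 libraries were above all others, and the doubly transduced libraries overlapped with NRASG12D. Its difference was 0.93, or 0.66 relative to the median gene (standard error 0.17, adjusted p = 0.00455) in NUP98-NSD1 cells and 0.34, or 0.11 relative (adjusted p = 0.342) in NUP98-NSD1+NRASG12D cells, and under quantile normalization the latter turned to -0.0018. Tyms had the lowest difference of the list between the doubly transduced and the NUP98-NSD1 cells, -0.59 (standard error 0.23, adjusted p = 0.176), and was called lower without NUP98-NSD1+NRASG12D replicate 1 (adjusted p = 0.0149).

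The same role includes genes of salvage and repair. Tk1, the thymidine kinase of the salvage route, had 29.2, 27.05 and 20.2 FPKM in NRASG12D, 55.0, 54.0 and 46.3 in NUP98-NSD1 and 81.9, 41.5 and 50.3 in NUP98-NSD1+NRASG12D cells. NRASG12D held its 3 lowest values. Tk1 differed by 1.00, or 0.73 relative to the median gene (standard error 0.15, adjusted p = 0.00228) in NUP98-NSD1 cells and 1.11, or 0.88 relative (adjusted p = 0.0196) in doubly transduced cells. For Tk1 the second call ended without NRASG12D replicate 2 or 3 (adjusted p from 0.0555 to 0.0791). Dut, which clears dUTP, was at 56.6, 48.2 and 37.0 FPKM in NRASG12D, 111, 117 and 97.3 in NUP98-NSD1 and 187, 68.2 and 84.9 in NUP98-NSD1+NRASG12D cells. The groups with the fusion did not overlap with NRASG12D, and doubly transduced replicate 1 held the highest value. Dut differed by 1.20, or 0.93 relative to the median gene (standard error 0.16, adjusted p = 0.00166) and by 1.13, or 0.90 relative (adjusted p = 0.0527), and the latter was not called. Without NUP98-NSD1+NRASG12D replicate 1 or 2 (adjusted p from 0.0261 to 0.0446) it was called, with a difference of 0.70 without doubly transduced replicate 1. Ung, which removes uracil from DNA, was at 10.4, 9.45 and 7.61 FPKM in NRASG12D, 25.1, 26.3 and 19.2 in NUP98-NSD1 and 34.1, 12.6 and 18.8 in NUP98-NSD1+NRASG12D cells. Its lowest library with the fusion, doubly transduced replicate 2, was still above NRASG12D. Ung differed by 1.27, or 1.00 relative to the median gene (standard error 0.16, adjusted p = 0.00138) and by 1.06, or 0.84 relative (adjusted p = 0.0457). For Ung the latter call ended with median-ratio scaling (adjusted p = 0.0502), with quantile normalization (adjusted p = 0.0859) and without NRASG12D replicate 1, 2 or 3 or NUP98-NSD1+NRASG12D replicate 3 (adjusted p from 0.0898 to 0.146), and the difference was 0.70 without NUP98-NSD1+NRASG12D replicate 1. Rrm1, the large subunit of ribonucleotide reductase, differed by 0.83 (adjusted p = 0.00113) and 0.72 (adjusted p = 0.0350). For Rrm1 the second call ended with quantile normalization (adjusted p = 0.0807) and without NRASG12D replicate 1, 2 or 3 or NUP98-NSD1+NRASG12D replicate 3 (adjusted p from 0.0575 to 0.130).

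Among the 6 regulators of transcription and chromatin, members of the E2F family moved apart. In NUP98-NSD1 cells 5 of the 6 were called higher and 1 (E2f1) lower, and in NUP98-NSD1+NRASG12D cells 4 of the 6 were called higher, or 2 without NRASG12D replicate 3. Of all tested genes 42.2% were called higher and 9.98% lower in the former and 24.2% higher in the latter. E2f1 (ENSMUSG00000027490.17, chromosome 2 from 154559407 to 154569892 of GRCm38), an activator of replication genes, was at 8.49, 10.3 and 8.44 FPKM in NRASG12D, 6.79, 6.37 and 6.79 in NUP98-NSD1 and 5.43, 9.89 and 9.50 in NUP98-NSD1+NRASG12D cells. All 3 NUP98-NSD1 libraries were below all 3 NRASG12D libraries, and the doubly transduced libraries overlapped with both groups. Its difference was -0.39, or -0.66 relative to the median gene (standard error 0.11, adjusted p = 0.0206) in NUP98-NSD1 cells and -0.15, or -0.38 relative (adjusted p = 0.639) in NUP98-NSD1+NRASG12D cells. For E2f1 the lower call ended without the filter, in the fit of all 9 libraries and without NRASG12D replicate 2 or NUP98-NSD1 replicate 1 or 2 (adjusted p from 0.0564 to 0.0748). E2f2 (ENSMUSG00000018983.9, chromosome 4 from 136172394 to 136196057 of GRCm38), an activator of the same family, was at 1.76, 2.06 and 1.20 FPKM in NRASG12D, 6.22, 5.10 and 5.87 in NUP98-NSD1 and 12.1, 7.79 and 7.18 in NUP98-NSD1+NRASG12D cells. The 3 groups did not overlap, with NRASG12D lowest and the doubly transduced cells highest. Its mean FPKM was 3.42 times that of NRASG12D cells in NUP98-NSD1 cells and 5.39 times in NUP98-NSD1+NRASG12D cells. E2f2 differed from NRASG12D by 1.34, or 1.07 relative to the median gene (standard error 0.15, adjusted p = 0.00113) and by 1.89, or 1.66 relative (adjusted p = 0.00131). Between the 2 groups with the fusion its difference of 0.55 (standard error 0.22) was the highest of the list and was not called (adjusted p = 0.188). E2f8, a repressor of the family, had 11.8, 11.7 and 8.68 FPKM in NRASG12D, 19.6, 20.1 and 20.0 in NUP98-NSD1 and 19.2, 16.3 and 19.7 in NUP98-NSD1+NRASG12D cells. Libraries with the fusion lay close together and above NRASG12D. E2f8 differed by 0.85, or 0.58 relative to the median gene (standard error 0.13, adjusted p = 0.00239) and by 0.74, or 0.51 relative (adjusted p = 0.0168). For E2f8 the second call ended with quantile normalization (adjusted p = 0.0514) and without NRASG12D replicate 3 (adjusted p = 0.0769).

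Mybl2 (ENSMUSG00000017861.11, chromosome 2 from 163054687 to 163084688 of GRCm38), which encodes the B-Myb activator of mitotic genes, was at 6.72, 9.37 and 7.04 FPKM in NRASG12D, 27.6, 31.2 and 25.3 in NUP98-NSD1 and 46.8, 17.3 and 24.3 in NUP98-NSD1+NRASG12D cells. Each library with the fusion was above each NRASG12D library, and doubly transduced replicate 1 was far above replicates 2 and 3. Its mean FPKM was 3.64 times the NRASG12D mean in NUP98-NSD1 cells. On the log2 scale of FPKM + 1 this was the largest difference of the list there, while Gins1 had the larger ratio of mean FPKM, 3.88. Mybl2 differed by 1.74, or 1.47 relative to the median gene (standard error 0.14, adjusted p = 0.000328) and by 1.70, or 1.47 relative (adjusted p = 0.00935). Foxm1 (ENSMUSG00000001517.14, chromosome 6 from 128362967 to 128376146 of GRCm38), the other activator of mitotic genes, had the lowest mean level of the list, at 2.95, 3.71 and 2.42 FPKM in NRASG12D, 4.03, 4.42 and 5.46 in NUP98-NSD1 and 4.16, 2.78 and 3.46 in NUP98-NSD1+NRASG12D cells. NUP98-NSD1 libraries were above NRASG12D, and the doubly transduced ones overlapped with both. Foxm1 differed by 0.49, or 0.22 relative to the median gene (standard error 0.16, adjusted p = 0.0382) and by 0.15, or -0.079 relative (adjusted p = 0.581), and the latter difference turned to -0.033 after median-ratio scaling and to -0.093 after quantile normalization. For Foxm1 the call in NUP98-NSD1 cells ended without NRASG12D replicate 1 or 3 or NUP98-NSD1 replicate 1, 2 or 3 (adjusted p from 0.0528 to 0.116). Between doubly transduced and NUP98-NSD1 cells it differed by -0.34 (standard error 0.19, adjusted p = 0.357). Uhrf1, which keeps DNA methylation through replication, was at 29.8, 32.5 and 24.2 FPKM in NRASG12D, 51.0, 52.7 and 52.7 in NUP98-NSD1 and 73.0, 42.6 and 50.5 in NUP98-NSD1+NRASG12D cells. It did not overlap between NRASG12D and either group with the fusion. Uhrf1 differed by 0.84, or 0.57 relative to the median gene (standard error 0.11, adjusted p = 0.00181) and by 0.89, or 0.66 relative (adjusted p = 0.0223). For Uhrf1 the second call ended without NRASG12D replicate 1, 2 or 3 (adjusted p from 0.0508 to 0.0915).

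**Figure D3:**
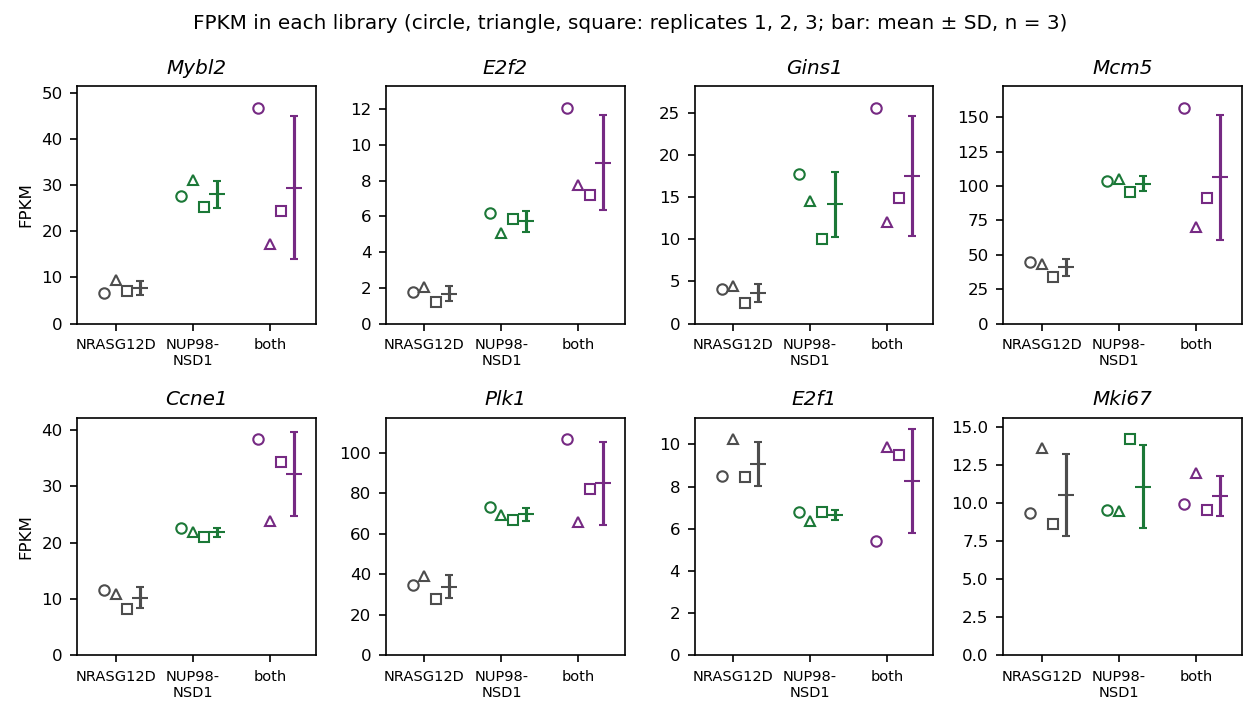
FPKM (vertical axes, starting at 0) of 8 of the genes in each library, with circles, triangles and squares for replicates 1, 2 and 3, bars for mean ± SD (n = 3) and "both" for NUP98-NSD1+NRASG12D cells. Mybl2 rose from 6.72 to 9.37 FPKM with NRASG12D to 25.3 to 31.2 FPKM with NUP98-NSD1, E2f1 was lower there at 6.37 to 6.79 FPKM, and Mki67 overlapped between all groups.

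The cyclins and their kinase Cdk1 were all called higher in NUP98-NSD1 cells, 6 of 6, and 3 of 6 in NUP98-NSD1+NRASG12D cells, beside 42.2% and 24.2% of all tested genes. With either scaling 4 and 3 of them were, and without the filter 4 and 2. In the latter cells 2 were called without NRASG12D replicate 1, NRASG12D replicate 3 or doubly transduced replicate 3, and 5 without doubly transduced replicate 2. Ccne1 (ENSMUSG00000002068.16, chromosome 7 from 38097984 to 38107534 of GRCm38), cyclin E1 of the entry into S phase, was at 11.6, 10.9 and 8.13 FPKM in NRASG12D, 22.6, 21.8 and 21.04 in NUP98-NSD1 and 38.4, 23.9 and 34.3 in NUP98-NSD1+NRASG12D cells. The 3 groups were apart, with the doubly transduced cells highest. Ccne1 differed from NRASG12D by 1.04, or 0.77 relative to the median gene (standard error 0.13, adjusted p = 0.00153) in NUP98-NSD1 and by 1.55, or 1.33 relative (adjusted p = 0.00221) in NUP98-NSD1+NRASG12D cells. Its difference of 0.52 between doubly transduced and NUP98-NSD1 cells (standard error 0.20) was not called (adjusted p = 0.169), except without NUP98-NSD1+NRASG12D replicate 2 (adjusted p = 0.0422). Ccne2, cyclin E2, had 17.8, 19.1 and 10.6 FPKM in NRASG12D, 24.8, 26.8 and 28.6 in NUP98-NSD1 and 27.1, 20.2 and 25.3 in NUP98-NSD1+NRASG12D cells. NRASG12D replicate 3 was lowest by far, and no library with the fusion was below its group. Ccne2 differed by 0.76, or 0.49 relative to the median gene (standard error 0.21, adjusted p = 0.0194) and by 0.61, or 0.38 relative (adjusted p = 0.0890). For Ccne2 the first call ended without NUP98-NSD1 replicate 2 or 3 (adjusted p from 0.05002 to 0.0598). Ccna2, cyclin A2 of S phase and mitotic entry, was at 32.3, 35.6 and 23.4 FPKM in NRASG12D, 54.3, 55.0 and 53.5 in NUP98-NSD1 and 69.3, 37.1 and 53.6 in NUP98-NSD1+NRASG12D cells. Its lowest doubly transduced library was just above the highest NRASG12D library. Ccna2 differed by 0.84, or 0.56 relative to the median gene (standard error 0.15, adjusted p = 0.00437) and by 0.77, or 0.54 relative (adjusted p = 0.0574). Without NUP98-NSD1+NRASG12D replicate 2 (adjusted p = 0.0176) the latter was called. Ccnb1, cyclin B1 of mitosis, had 49.5, 50.7 and 35.7 FPKM in NRASG12D, 90.6, 94.0 and 84.0 in NUP98-NSD1 and 126, 83.4 and 105 in NUP98-NSD1+NRASG12D cells. NRASG12D libraries were the 3 lowest. Ccnb1 differed by 0.98, or 0.71 relative to the median gene (standard error 0.14, adjusted p = 0.00214) and by 1.19, or 0.96 relative (adjusted p = 0.00560). Cdk1, the kinase that cyclin B1 activates, was at 71.4, 81.2 and 43.9 FPKM in NRASG12D, 129.7, 140.2 and 131 in NUP98-NSD1 and 179.7, 106 and 159 in NUP98-NSD1+NRASG12D cells. Libraries with the fusion were all above NRASG12D. Cdk1 differed by 1.06, or 0.79 relative to the median gene (standard error 0.21, adjusted p = 0.00625) and by 1.18, or 0.95 relative (adjusted p = 0.0194). For Cdk1 the second call ended without NRASG12D replicate 1 or 3 or NUP98-NSD1+NRASG12D replicate 3 (adjusted p from 0.0505 to 0.0629). Ccnb2, cyclin B2, differed by 0.56 (adjusted p = 0.0191) and 0.52 (adjusted p = 0.136). For Ccnb2 the second difference was called without NUP98-NSD1+NRASG12D replicate 2 (0.72, adjusted p = 0.0374).

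Mitotic kinases and the genes of checkpoint and anaphase had a median of 1.16 in NUP98-NSD1+NRASG12D cells and of 1.04 in NUP98-NSD1 cells against NRASG12D. All 8 were called higher in NUP98-NSD1 cells and 7 of the 8 in the doubly transduced cells, beside 42.2% and 24.2% of all tested genes. In the latter 3 (Aurka, Plk1 and Bub1) were called without NRASG12D replicate 3, 3 without the filter and 5 without NRASG12D replicate 1. Plk1 (ENSMUSG00000030867.7, chromosome 7 from 122159439 to 122169873 of GRCm38), the Polo kinase of mitotic entry, was at 34.8, 38.8 and 27.5 FPKM in NRASG12D, 73.1, 68.9 and 66.5 in NUP98-NSD1 and 107, 65.9 and 82.2 in NUP98-NSD1+NRASG12D cells. The groups with the fusion did not overlap with NRASG12D. Plk1 differed by 1.03, or 0.76 relative to the median gene (standard error 0.13, adjusted p = 0.00141) and by 1.29, or 1.06 relative (adjusted p = 0.00446). Aurka, the Aurora kinase of the spindle poles, had 25.2, 26.99 and 19.9 FPKM in NRASG12D, 63.5, 59.8 and 49.2 in NUP98-NSD1 and 103, 54.6 and 82.9 in NUP98-NSD1+NRASG12D cells. Every library with the fusion had more than every NRASG12D library. Aurka differed by 1.23, or 0.96 relative to the median gene (standard error 0.14, adjusted p = 0.00119) and by 1.66, or 1.44 relative (adjusted p = 0.00277). Between the doubly transduced and NUP98-NSD1 cells it differed by 0.44 (standard error 0.25, adjusted p = 0.368). Aurkb, the Aurora kinase of the chromosomal passenger complex, was at 36.8, 38.8 and 29.3 FPKM in NRASG12D, 76.5, 76.3 and 66.5 in NUP98-NSD1 and 111, 58.5 and 71.7 in NUP98-NSD1+NRASG12D cells. NRASG12D held the 3 lowest values. Aurkb differed by 1.05, or 0.78 relative to the median gene (standard error 0.12, adjusted p = 0.00118) and by 1.14, or 0.91 relative (adjusted p = 0.0133). For Aurkb the second call ended without NRASG12D replicate 3 (adjusted p = 0.0595). Birc5, survivin of the same complex, had 68.5, 76.3 and 49.3 FPKM in NRASG12D, 137, 126 and 121 in NUP98-NSD1 and 213, 105 and 138 in NUP98-NSD1+NRASG12D cells. Here too the NRASG12D libraries lay below the rest. Birc5 differed by 1.00, or 0.72 relative to the median gene (standard error 0.16, adjusted p = 0.00303) and by 1.18, or 0.95 relative (adjusted p = 0.0195). For Birc5 the second call ended without NRASG12D replicate 1 or 3 (adjusted p from 0.0566 to 0.0778).

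Bub1b, which holds anaphase back until chromosomes are attached, was at 17.5, 18.7 and 13.1 FPKM in NRASG12D, 35.8, 34.3 and 32.4 in NUP98-NSD1 and 50.2, 27.6 and 32.2 in NUP98-NSD1+NRASG12D cells. No library with the fusion overlapped with NRASG12D. Bub1b differed by 1.03, or 0.76 relative to the median gene (standard error 0.13, adjusted p = 0.00163) and by 1.08, or 0.85 relative (adjusted p = 0.0158). For Bub1b the second call ended without NRASG12D replicate 3 (adjusted p = 0.0669). Cdc20, the activator of the anaphase-promoting complex, had 39.3, 41.7 and 31.0 FPKM in NRASG12D, 87.2, 83.3 and 67.9 in NUP98-NSD1 and 125, 54.3 and 70.3 in NUP98-NSD1+NRASG12D cells. Doubly transduced replicate 2 was the lowest library with the fusion and still above NRASG12D. Cdc20 differed by 1.07, or 0.80 relative to the median gene (standard error 0.14, adjusted p = 0.00167) and by 1.06, or 0.83 relative (adjusted p = 0.0339). For Cdc20 the second call ended with quantile normalization (adjusted p = 0.05002) and without NRASG12D replicate 1, 2 or 3 or NUP98-NSD1+NRASG12D replicate 3 (adjusted p from 0.0656 to 0.120). Chek1 (ENSMUSG00000032113.16, chromosome 9 from 36708482 to 36727065 of GRCm38), the checkpoint kinase of stalled replication, was at 4.41, 5.45 and 3.57 FPKM in NRASG12D, 8.93, 7.50 and 9.22 in NUP98-NSD1 and 12.0, 5.80 and 4.02 in NUP98-NSD1+NRASG12D cells. NUP98-NSD1 libraries were above NRASG12D, while doubly transduced replicates ranged from within NRASG12D to the highest value of all. Chek1 differed by 0.81, or 0.54 relative to the median gene (standard error 0.15, adjusted p = 0.00519) and by 0.49, or 0.26 relative (adjusted p = 0.298). Between doubly transduced and NUP98-NSD1 cells it differed by -0.32 (standard error 0.34, adjusted p = 0.668). With single libraries left out, Chek1 in doubly transduced cells ran from 0.11 to 0.79 against NRASG12D and from -0.70 to -0.019 against NUP98-NSD1 cells. Bub1, a kinase of the same checkpoint as Bub1b, differed from NRASG12D by 1.08 (adjusted p = 0.00256) and 1.48 (adjusted p = 0.00307).

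Genes of the spindle and centromere showed smaller differences. Of the 8, 7 were called higher in NUP98-NSD1 cells and 1 (Kif20a) in NUP98-NSD1+NRASG12D cells, beside 42.2% and 24.2% of all tested genes, with medians of 0.56 and 0.41. With either scaling 2 and 0 of them were called, beside 22.7% and 19.8% of all tested genes with median-ratio scaling and 19.4% and 16.0% with quantile normalization, and without the filter 4 and 0. A fit of all 9 libraries called 3 in each group. Kif11, the motor that pushes spindle poles apart, was at 19.7, 24.2 and 16.2 FPKM in NRASG12D, 32.5, 31.2 and 33.8 in NUP98-NSD1 and 38.9, 23.7 and 22.9 in NUP98-NSD1+NRASG12D cells. NUP98-NSD1 libraries were above NRASG12D, and the doubly transduced ones overlapped with it. Kif11 differed by 0.69, or 0.42 relative to the median gene (standard error 0.14, adjusted p = 0.00686) and by 0.46, or 0.24 relative (adjusted p = 0.177). Its call in NUP98-NSD1 cells ended with median-ratio scaling (adjusted p = 0.0581) and quantile normalization (adjusted p = 0.05004). Cenpf (ENSMUSG00000026605.14, chromosome 1 from 189640606 to 189688086 of GRCm38), a large protein of the outer kinetochore, was at 8.64, 10.1 and 6.98 FPKM in NRASG12D, 7.15, 7.72 and 9.80 in NUP98-NSD1 and 9.45, 7.75 and 7.02 in NUP98-NSD1+NRASG12D cells. All 3 groups overlapped. Cenpf differed by -0.049, or -0.32 relative to the median gene (standard error 0.16, adjusted p = 0.816) and by -0.071, or -0.30 relative (adjusted p = 0.788). Kif20a, a motor of the dividing cell's midzone, differed by 0.77 (adjusted p = 0.00383) and 0.76 (adjusted p = 0.0445), and its second call ended with either scaling (adjusted p = 0.0506 with median-ratio scaling and 0.0864 with quantile normalization) and without NRASG12D replicate 1, 2 or 3 or NUP98-NSD1+NRASG12D replicate 1 or 3 (adjusted p from 0.0561 to 0.157). Kif23, Tpx2, Nusap1, Cenpa and Cenpe, which serve the midzone, the spindle and the centromere, differed from NRASG12D by 0.36 (Cenpe) to 0.85 (Cenpa) in NUP98-NSD1 cells. In the doubly transduced cells they ran from 0.28 (Nusap1) to 0.91 (Cenpa), and the value of Nusap1 turned to -0.015 under quantile normalization. Cenpa was called there without NUP98-NSD1+NRASG12D replicate 2 (1.19, adjusted p = 0.0144).

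The chromosome proteins used as proliferation markers differed from each other. Mki67 (ENSMUSG00000031004.8, chromosome 7 from 135689784 to 135716361 of GRCm38), which encodes the Ki-67 antigen that coats mitotic chromosomes, was at 9.33, 13.6 and 8.63 FPKM in NRASG12D, 9.51, 9.49 and 14.2 in NUP98-NSD1 and 9.93, 12.0 and 9.50 in NUP98-NSD1+NRASG12D cells. The libraries of all 3 groups overlapped. Mki67 differed by 0.070, or -0.20 relative to the median gene (standard error 0.21, adjusted p = 0.796) and by 0.012, or -0.22 relative (adjusted p = 0.967), and both values turned negative under the scalings (-0.24 and -0.20 with median-ratio scaling, -0.26 and -0.24 with quantile normalization). Top2a, the topoisomerase that untangles chromosomes, was at 48.0, 51.9 and 40.1 FPKM in NRASG12D, 66.0, 60.9 and 70.5 in NUP98-NSD1 and 82.0, 64.1 and 51.9 in NUP98-NSD1+NRASG12D cells. NUP98-NSD1 libraries were above NRASG12D, and the lowest doubly transduced library was level with the highest NRASG12D library. Top2a differed by 0.49, or 0.22 relative to the median gene (standard error 0.11, adjusted p = 0.0107) and by 0.47, or 0.25 relative (adjusted p = 0.106). Its call ended with median-ratio scaling (adjusted p = 0.286) and quantile normalization (adjusted p = 0.237).

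For a summary by phase, the licensing and DNA synthesis roles with E2f1, E2f2, E2f8, Uhrf1, Ccne1, Ccne2 and Chek1 were taken as S phase genes. All others were taken as genes of G2 and mitosis, among them Mybl2, Mki67, Top2a, Cenpe and Cenpf. By phase, 22 of 23 genes of S phase were called higher and 1 (E2f1) lower in NUP98-NSD1 cells, and 21 of 23 genes of G2 and mitosis were called higher, beside 42.2% of all tested genes higher and 9.98% lower. With median-ratio scaling these counts were 20 and 13, beside 22.7% of all tested genes, and with quantile normalization 21 and 13, beside 19.4%, so their nearness did not hold under the scalings. In NUP98-NSD1+NRASG12D cells the counts called higher were 16 of 23 for S phase and 11 of 23 for G2 and mitosis, beside 24.2% of all tested genes. They were 15 and 10 with median-ratio scaling, beside 19.8%, and 10 and 9 with quantile normalization, beside 16.0%. They were 6 and 5 without the filter, 5 and 5 without NRASG12D replicate 3, 9 and 7 without NRASG12D replicate 1 and 7 and 9 without NRASG12D replicate 2. A fit of all 9 libraries gave 19 and 14 in each group with the fusion. The mean log2(FPKM + 1) of G2 and mitosis genes minus that of S phase genes was 0.0038, 0.16 and 0.037 in NRASG12D, -0.13, -0.16 and -0.043 in NUP98-NSD1 and -0.15, -0.021 and -0.11 in NUP98-NSD1+NRASG12D cells. This balance was thus higher in each of the 3 NRASG12D libraries than in each of the 6 libraries with the fusion, by amounts smaller than the rise of either phase. The nearest were NRASG12D replicate 1, at 0.0038, and doubly transduced replicate 2, at -0.021. As the phases hold different genes, a balance of 0 has no meaning of its own.

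Differences also varied with transcript length, a pattern looked at after the values were seen. The 5 genes with a longest annotated transcript over 5000 bp are Top2a (5221 bp), Rrm1 (5475 bp), Cenpe (7910 bp), Mki67 (10061 bp) and Cenpf (11130 bp). Their median difference between NUP98-NSD1 and NRASG12D was 0.36, against 0.98 for the 41 shorter genes. For NUP98-NSD1+NRASG12D minus NRASG12D these medians were 0.43 and 0.99. Over all tested genes the longer ones were lower as well, with medians of 0.088 over 5000 bp and 0.31 at or under it for NUP98-NSD1 minus NRASG12D, and 0.021 and 0.28 for NUP98-NSD1+NRASG12D minus NRASG12D. Across the 46 genes, Spearman's rho between length and difference was -0.36 in the comparison of NUP98-NSD1 and -0.43 in that of the doubly transduced cells with NRASG12D, and across all tested genes it was -0.20 and -0.17. These are descriptions across genes, which share their libraries and are not independent replicates. The part of transcript length in the low differences of Mki67 and Cenpf was not tested.

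**Figure D4:**
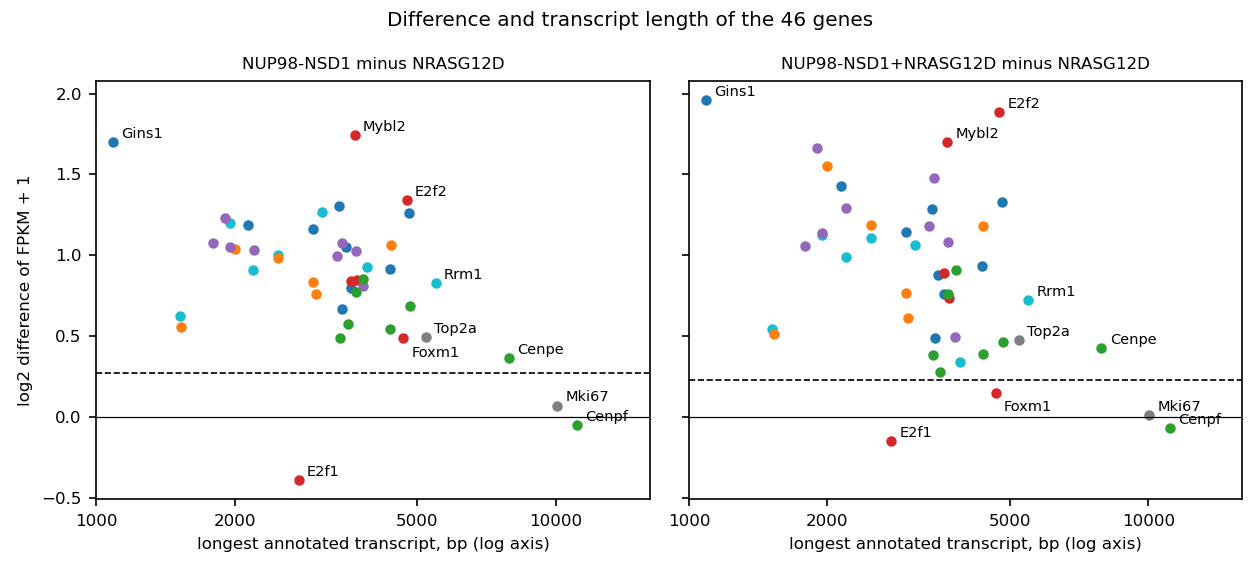
Log2 difference of FPKM + 1 (vertical axis) against the longest annotated transcript in bp (horizontal log axis) for the 46 genes, coloured by role as in the plot of all differences, with a dashed line at the median of all tested genes. Mki67 and Cenpf, the longest at 10061 and 11130 bp, lie near 0 at 0.070 and -0.049 at the left and 0.012 and -0.071 at the right, and under median-ratio scaling or quantile normalization the values of Mki67 turn below 0.

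Some of the genes share sequence with other annotated genes, and a fragment from a shared stretch cannot be placed by its sequence alone. Over 10% of all 50-base stretches were shared in 10 of the 46 genes, and 0% in 12. Each share is the total with any other gene, and the gene named with it is the one that shared most. The largest shares were 25.2% for Kif20a (Cdc23, on the opposite strand), 23.4% for Ccnb1 (the pseudogene Ccnb1-ps) and 23.3% for Mcm7 (Gm5487). They were 19.3% for Mybl2 (Gm3320), 19.1% for Pcna (Pcna-ps2), 15.4% for Uhrf1 (Gm5648), 14.4% for Ccne2 (Ints8), 11.4% for Ccna2 (Exosc9), 10.6% for Cdc20 (Gm7856) and 10.4% for Plk1 (Plk-ps1). The labels state no strand setting, so fragments of such overlaps cannot be told apart.

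The promoters of these genes were read for the motifs of their known regulators in the 250 bases before the start of transcription in RefSeq, on GRCm38.p6. Promoters were found for 38 of the 46 genes and for 27025 genes in all, and a gene with several promoters counts once. An E2F motif (GCGGGAA or GCGCGAA, on either strand) was present in 18.4% of the 38 genes and in 5.74% of all genes. It was found in 6 of 20 S phase genes and 1 of 18 genes of G2 and mitosis. A CHR motif (TTTGAA or TTCGAA, on either strand), the cell cycle homology region bound by MuvB complexes, was present in 31.6% of the 38 and in 19.6% of all genes. It occurred in 5 of the 20 S phase genes and 7 of the 18 G2 and mitosis genes. A CCAAT box (CCAAT, on either strand) was present in 71.1% of the 38 and 37.5% of all genes, and a CHR together with a CCAAT box in 31.6% and 7.93%. A match describes the letters of this window, and no match says nothing of the factor.

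The promoters of 6 genes show how the motifs lie in genes called higher in NUP98-NSD1 cells and in those that were not, each 5′ to 3′ on the gene's strand, with E2F, CHR and CCAAT matches in capitals. Mcm5 (chr8:75109259-75109508 on the forward strand) has 1 E2F match and 2 CCAAT boxes. Mybl2 (chr2:163054385-163054634 on the forward strand), called higher in both groups with the fusion, has no match to the exact letters searched for. Its window holds GCGGGAG, which differs from the E2F motif GCGGGAA in the last letter. Bub1b (chr2:118597961-118598210 on the forward strand) has 1 CHR match and 1 CCAAT box, and Plk1 (chr7:122159185-122159434 on the forward strand) has 1 CCAAT box. Mki67 (chr7:135716380-135716629 on the reverse strand) has 2 CHR matches and 3 CCAAT boxes and Cenpf (chr1:189688087-189688336 on the reverse strand) 2 CCAAT boxes, though neither gene was called.
Mcm5: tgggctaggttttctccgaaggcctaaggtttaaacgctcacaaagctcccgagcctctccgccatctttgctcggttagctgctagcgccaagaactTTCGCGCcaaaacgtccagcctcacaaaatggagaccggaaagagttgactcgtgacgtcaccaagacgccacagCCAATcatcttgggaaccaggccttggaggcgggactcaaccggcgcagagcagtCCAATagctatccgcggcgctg
Mybl2: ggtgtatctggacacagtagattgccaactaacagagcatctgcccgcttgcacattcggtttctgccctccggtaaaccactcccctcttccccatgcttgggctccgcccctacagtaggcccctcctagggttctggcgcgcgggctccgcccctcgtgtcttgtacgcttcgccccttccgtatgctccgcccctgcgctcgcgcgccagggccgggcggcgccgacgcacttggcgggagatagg
Bub1b: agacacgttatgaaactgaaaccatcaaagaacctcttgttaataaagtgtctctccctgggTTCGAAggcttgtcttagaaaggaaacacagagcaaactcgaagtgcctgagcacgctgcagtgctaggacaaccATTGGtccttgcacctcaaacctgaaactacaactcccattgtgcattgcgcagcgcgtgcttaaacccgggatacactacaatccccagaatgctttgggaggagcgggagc
Plk1: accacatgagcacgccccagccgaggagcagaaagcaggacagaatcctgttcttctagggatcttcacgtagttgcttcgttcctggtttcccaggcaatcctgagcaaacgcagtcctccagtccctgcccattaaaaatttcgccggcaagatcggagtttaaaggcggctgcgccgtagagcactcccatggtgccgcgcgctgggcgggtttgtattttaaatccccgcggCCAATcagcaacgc
Mki67: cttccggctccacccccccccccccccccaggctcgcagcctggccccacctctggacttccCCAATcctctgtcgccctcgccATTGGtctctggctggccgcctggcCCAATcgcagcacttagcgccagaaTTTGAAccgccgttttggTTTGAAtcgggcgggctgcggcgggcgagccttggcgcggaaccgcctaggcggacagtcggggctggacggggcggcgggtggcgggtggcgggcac
Cenpf: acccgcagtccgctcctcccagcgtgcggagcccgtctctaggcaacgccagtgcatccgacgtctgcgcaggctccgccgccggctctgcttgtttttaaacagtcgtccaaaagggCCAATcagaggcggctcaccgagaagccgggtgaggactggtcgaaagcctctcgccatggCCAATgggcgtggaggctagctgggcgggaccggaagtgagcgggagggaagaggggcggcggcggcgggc

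Other genes of DNA replication, 50 in number, gave 45 called higher and 1 lower in NUP98-NSD1 cells against NRASG12D, 18 higher and 1 lower in doubly transduced cells, and 0 higher and 1 lower between the 2 groups with the fusion. Of all tested genes 42.2% were called higher in NUP98-NSD1 and 24.2% in doubly transduced cells. With median-ratio scaling 29 and 15 of the 50 were called higher, beside 22.7% and 19.8% of all tested genes, and with quantile normalization 30 and 10, beside 19.4% and 16.0%. In NUP98-NSD1 cells the largest differences were 1.56 for Hells, 1.29 for Nasp and 1.23 for Timeless, and the smallest -0.25 for Rfc2, 0.27 for Rpa1 and 0.28 for Orc4, the last 2 turning to between -0.068 and -0.018 under the scalings. In NUP98-NSD1+NRASG12D cells they were 1.44 for Gmnn, 1.37 for Hells and 1.36 for Timeless at the top, and -1.36 for Rfc2, -0.13 for Rpa1 and -0.012 for Fanci at the bottom. Between the 2 groups with the fusion they were 0.31 for Gmnn, 0.25 for Donson and 0.20 for Chaf1a, and -1.11 for Rfc2, -0.46 for Rpa3 and -0.44 for Pola1. Rpa3 was called lower, at -0.86, without NUP98-NSD1+NRASG12D replicate 1 (adjusted p = 0.0204). Rfc2, a subunit of the loader of the PCNA clamp, was the gene called lower each time, and it was at 415, 380.2 and 392 FPKM in NRASG12D, 324, 323 and 351 in NUP98-NSD1 and 209, 134 and 129 in NUP98-NSD1+NRASG12D cells. The 3 groups did not overlap, with NRASG12D highest. Rfc2 had adjusted p = 0.0342 for NUP98-NSD1 against NRASG12D, 0.00345 for the doubly transduced cells and 0.0309 between the groups with the fusion. Its first call ended without NRASG12D replicate 1, 2 or 3 or NUP98-NSD1 replicate 1 or 2 (adjusted p from 0.0638 to 0.123), and the third without any NUP98-NSD1 library or doubly transduced replicate 2 or 3 (adjusted p from 0.0616 to 0.128). The higher call of Rpa1 in NUP98-NSD1 cells ended without NRASG12D replicate 2 or 3 or NUP98-NSD1 replicate 2 (adjusted p from 0.0502 to 0.0750).

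Of 60 further mitosis genes, 52 were called higher and 1 (Nek6) lower in NUP98-NSD1 cells, 20 higher and 0 lower in doubly transduced cells, where limma gave 33 an unadjusted p under 0.05, and 0 between the 2 groups with the fusion, where 1 reached it. These calls stand beside 42.2% of all tested genes called higher in NUP98-NSD1 and 24.2% in doubly transduced cells. Of all 13493 tested genes, limma gave 6697 an unadjusted p under 0.05 in doubly transduced cells and 3316 between the groups with the fusion. Median-ratio scaling gave 30 higher and 3 lower in NUP98-NSD1 cells and 16 higher and 0 lower in doubly transduced cells, and quantile normalization gave 31 and 2, and 9 and 1. Beside them, 22.7% and 19.8% of all tested genes were called higher with median-ratio scaling and 19.4% and 16.0% with quantile normalization, and 23.3% and 19.1%, and 25.5% and 22.7%, were called lower. The largest differences in NUP98-NSD1 cells were 1.21 for Spc24, 1.11 for Kif15 and 1.08 for Cenpm, and the smallest -0.53 for Nek6, -0.081 for Aspm and 0.0079 for Zwint, the last turning to -0.33 and -0.30 under the scalings. In the doubly transduced cells the largest were 1.19 for Ube2c, 1.17 for Tacc3 and 1.17 for Cdca3, and the smallest -0.16 for Nek6, -0.16 for Aspm and -0.066 for Ect2. Between the groups with the fusion they were 0.49 for Pttg1, 0.36 for Nek6 and 0.34 for Cdc25b, and -0.41 for Ect2, -0.40 for Cenpm and -0.37 for Mad2l1. Without NUP98-NSD1+NRASG12D replicate 1 the differences of Pttg1 and Nek6 were called higher and those of Ect2, Cenpm and Mad2l1 lower (adjusted p from 0.0214 to 0.0298).

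Of 25 controllers of the cell cycle, 18 were called higher and 2 (Rb1 and Rbl2) lower in NUP98-NSD1 cells, 5 (Cdc25a, Cdc25c, Cdk2, Lin9 and Tfdp1) higher and 3 (Rb1, Rbl2 and Chek2) lower in NUP98-NSD1+NRASG12D cells, and 0 higher and 1 (Rb1) lower between the 2 groups with the fusion. Over all tested genes 42.2% were called higher and 9.98% lower in NUP98-NSD1 cells, and 24.2% and 14.1% in doubly transduced cells. With median-ratio scaling 9 controllers were higher and 5 lower in NUP98-NSD1 cells and 3 and 4 in doubly transduced cells, and with quantile normalization 8 and 5, and 1 and 6, while of all tested genes 23.3% and 19.1% were called lower with median-ratio scaling and 25.5% and 22.7% with quantile normalization. Rb1, the retinoblastoma protein that holds E2F factors inactive, was at 38.8, 27.4 and 28.1 FPKM in NRASG12D, 14.8, 19.1 and 23.9 in NUP98-NSD1 and 4.59, 7.11 and 3.57 in NUP98-NSD1+NRASG12D cells. The 3 groups did not overlap, with NRASG12D highest and the doubly transduced cells lowest. Its differences were -0.69 (standard error 0.20, adjusted p = 0.0238) in NUP98-NSD1 and -2.44 (adjusted p = 0.000604) in doubly transduced cells against NRASG12D. Between doubly transduced and NUP98-NSD1 cells Rb1 differed by -1.75 (standard error 0.27, adjusted p = 0.0143). The first of these calls ended without NRASG12D replicate 1 or NUP98-NSD1 replicate 1 or 2 (adjusted p from 0.0670 to 0.0696) and the last without NUP98-NSD1 replicate 2 or 3 (adjusted p from 0.0654 to 0.0695). Rbl2, the RB-like protein p130 of resting cells, was at 30.1, 29.6 and 31.4 FPKM in NRASG12D, 24.2, 23.3 and 24.8 in NUP98-NSD1 and 17.2, 15.7 and 12.3 in NUP98-NSD1+NRASG12D cells. It followed the same order without overlap. Rbl2 differed by -0.32 (adjusted p = 0.0111) and -0.98 (adjusted p = 0.00397) from NRASG12D and by -0.65 (adjusted p = 0.0587) between the groups with the fusion, where it was called without NUP98-NSD1+NRASG12D replicate 1. Other small differences were -0.10 for Tfdp2 in NUP98-NSD1 cells and -0.63 for Chek2 in doubly transduced cells, where that call ended without any NRASG12D library or doubly transduced replicate 3 (adjusted p from 0.0594 to 0.118). The largest in NUP98-NSD1 cells were 1.30 for Tfdp1, the partner of E2F factors, 1.21 for Skp2 and 1.09 for Wee1. In the doubly transduced cells they were 1.19 for Tfdp1, 0.89 for Skp2 (adjusted p = 0.0532, and called at 0.55 without doubly transduced replicate 1 and at 1.05 without replicate 2) and 0.82 for Lin9, where the call of Tfdp1 ended without NRASG12D replicate 1 or 3 (adjusted p from 0.0659 to 0.0672) and that of Lin9 without any NRASG12D library or doubly transduced replicate 1 or 2 (adjusted p from 0.0561 to 0.128). Between the groups with the fusion the highest were 0.19 for Cdk2, 0.075 for Cdc25a and 0.073 for E2f3, and Chek2 was at -0.67 and was called lower without NUP98-NSD1+NRASG12D replicate 1 (adjusted p = 0.0403).

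Of 12 reference genes often held to be stable, 7 were called higher and 0 lower in NUP98-NSD1 cells, 3 (Gapdh, Gusb and Hprt) higher and 0 lower in doubly transduced cells and 0 between the groups with the fusion, with 7, 7 and 2 at an unadjusted limma p under 0.05. The shares of all tested genes called higher were 42.2%, 24.2% and 2.30%. An unadjusted limma p under 0.05 was reached by 8026, 6697 and 3316 of the 13493 tested genes. With median-ratio scaling 2 were called higher and 2 lower in each group with the fusion against NRASG12D, and with quantile normalization 4 and 2 in NUP98-NSD1 and 2 and 2 in doubly transduced cells. Over all tested genes the shares with median-ratio scaling were 22.7% higher and 23.3% lower in NUP98-NSD1 and 19.8% and 19.1% in doubly transduced cells, and with quantile normalization 19.4% and 25.5%, and 16.0% and 22.7%. Gapdh, an enzyme of glycolysis, was at 272, 279 and 288 FPKM in NRASG12D, 639.6, 561 and 422 in NUP98-NSD1 and 976, 699 and 1260.1 in NUP98-NSD1+NRASG12D cells. It did not overlap between the groups and rose to the largest reference difference in the doubly transduced cells. In NUP98-NSD1 cells the largest differences were 0.97 for Hprt, 0.93 for Gapdh and 0.63 for Ppia, and among those below 0 were -0.35 for Polr2a and -0.0016 for Actb, which turned to 0.43 under quantile normalization. Polr2a was called lower without NUP98-NSD1 replicate 3 (-0.49, adjusted p = 0.0165). The call of Ppia ended without NUP98-NSD1 replicate 1 or 2 (adjusted p from 0.0584 to 0.0624). In doubly transduced cells the largest were 1.76 for Gapdh, 1.27 for Hprt and 1.14 for B2m, and among those below 0 were -0.45 for Polr2a and -0.33 for Abl1. B2m was called there without doubly transduced replicate 1 (1.45, adjusted p = 0.0211) or 2 (0.71, adjusted p = 0.0239), Polr2a without replicate 2 (-0.72, adjusted p = 0.0164) and Abl1 without replicate 1 (-0.46, adjusted p = 0.0479). Between the groups with the fusion the largest were 0.84 for B2m, 0.83 for Gapdh and 0.40 for Gusb, and among those below 0 were -0.50 for Abl1 and -0.11 for Ywhaz. Without doubly transduced replicate 1, Gusb was called higher (0.55, adjusted p = 0.0468) and Abl1 lower (-0.64, adjusted p = 0.0403). The median difference of the 12 was 0.37 in NUP98-NSD1 and 0.48 in doubly transduced cells against NRASG12D, or 0.10 and 0.26 relative to the median gene, and 0.026 between the groups with the fusion. The first of these medians became 0.036 with median-ratio scaling and 0.18 with quantile normalization, the second 0.25 and 0.35, and the last 0.12 and -0.018.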

How the data were processed

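The authors measured RNA by paired-end sequencing and deposited FPKM per gene for 9 libraries, 3 per group. According to the submitters' processing notes, reads were aligned to GRCm38.p6 with STAR 2.7.2a and FPKM came from Cufflinks 2.2.1. The study's methods name DESeq2 on counts, and it was not run on FPKM here. Here the deposited FPKM were taken as log2(FPKM + 1), a gene was kept with 1 FPKM or more in 3 or more libraries (13493 of 55274), and each comparison of 6 libraries was fitted with limma 3.58.1 (trended prior variance, R 4.3.3), with p-values adjusted over all 13493 genes by Benjamini and Hochberg and a threshold of 0.05. Smaller steps ran in Python 3.11.15. The steps were tested on simulated data. With 3 libraries a group, p measures the spread between these libraries. Alternatives were a pseudocount of 0.1, no filter, median-ratio scaling, quantile normalization, 1 fit of all 9 libraries, a replicate block and leaving out each library. The members and lists were chosen with earlier results of these data known. Values in every library are given for fixed representatives of each role and for the 3 largest and 3 smallest differences of each comparison. Of the other lists, the 3 largest and 3 smallest differences per comparison are given, except that for the reference genes not all of the 3 smallest are. Rb1, Rbl2, Rfc2 and Gapdh were set out in full after their values were seen. The length limit of 5000 bp was chosen after seeing the data.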

Additional observations from a re-analysis of the deposited data

How the results depend on the processing

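These changes are given for the counts and medians over all 46 genes, and then for parts of the list and the other lists. For NUP98-NSD1 minus NRASG12D, the 1 member called lower (E2f1) became 0 without the filter on low values, 0 with a fit of all 9 libraries, and 0 to 1 when single libraries were left out. The median difference of the members became 0.58 with median-ratio scaling and 0.62 with quantile normalization, and the median of all genes moved with it. For NUP98-NSD1+NRASG12D minus NRASG12D, the 27 members called higher became 11 without the filter, where more genes were tested, and 10 to 33 when single libraries were left out. A fit of all 9 libraries gave 33 in this comparison and 33 for NUP98-NSD1 minus NRASG12D. The median of the members in doubly transduced cells against NRASG12D became 0.56 with quantile normalization. Between the groups with the fusion, leaving out single libraries gave 0 to 1 members higher (Ccne1, without NUP98-NSD1+NRASG12D replicate 2) and 0 to 3 lower. The median there turned from -0.017 to 0.081 with median-ratio scaling, and ran from -0.19 to 0.19 when single libraries were left out.

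For NUP98-NSD1 minus NRASG12D, the scalings lowered the counts called higher of several lists by 1.5 times or more. With median-ratio scaling and quantile normalization, the 21 genes of G2 and mitosis became 13 and 13, the 7 of the spindle 2 and 2, the 45 further replication genes 29 and 30, the 52 further mitosis genes 30 and 31, the 18 controllers 9 and 8, and the 7 reference genes 2 and 4. The reference median of 0.37 became 0.036 and 0.18. For NUP98-NSD1+NRASG12D minus NRASG12D, quantile normalization took the 16 genes of S phase to 10, the 18 further replication genes to 10, the 20 further mitosis genes to 9 and the 5 controllers to 1. Without NRASG12D replicate 3 the counts became 5 for S phase and 5 for G2 and mitosis. They became 3 for the 9 licensing genes (from 8), 0 for the 7 of DNA synthesis (from 4) and 3 for the 8 of the kinase role (from 7). Without the filter these counts became 6, 5, 3, 0 and 3 in the same order.

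Some differences turned in sign. Rpa1, called higher in NUP98-NSD1 cells with 0.27, became -0.068 with median-ratio scaling and -0.027 with quantile normalization, and the reference gene B2m, called higher there with 0.30, became -0.035 with median-ratio scaling. The differences of the 46 genes from NRASG12D that follow were not called with the deposited values. Mki67 was -0.24 and -0.26 for NUP98-NSD1 minus NRASG12D, and -0.20 and -0.24 for NUP98-NSD1+NRASG12D minus NRASG12D, with median-ratio scaling and quantile normalization. With single libraries left out it ran from -0.11 to 0.25 and from -0.10 to 0.19. Cenpf then ran from -0.17 to 0.063 and from -0.19 to 0.041, and E2f1 in NUP98-NSD1+NRASG12D cells from -0.29 to 0.093. Tyms in these cells became -0.0018 with quantile normalization, and Foxm1 became -0.033 with median-ratio scaling and -0.093 with quantile normalization. Nusap1 became -0.015 there with quantile normalization. The cause was not tested. With the pseudocount of 0.1 all 32 named genes kept their direction and their side of the threshold in each comparison with NRASG12D.

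Replicate numbers carried no pairing that could be seen, since the correlation of same-numbered libraries, after removing group means, was between -0.18 and 0.16. With the replicate block, 41 members were called higher and 1 lower for NUP98-NSD1 minus NRASG12D, 28 higher for NUP98-NSD1+NRASG12D minus NRASG12D, and 0 higher between the groups with the fusion.

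The fewest estimated fragments behind a value of these genes were 59, for Gins1. Cell type and the shift of the median gene moved with the groups, and the differences varied with transcript length across genes. These data do not separate any of these from the fraction of cycling cells.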
